A study of Mus musculus with 6 samples.

Results

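In bone marrow progenitors of adult mice, 133 of the 12101 genes listed were near silent without doxycycline (dox) and were read in every library after a *Nanog* transgene had been switched on with it. The expression of a gene is given as CPM, its reads scaled to a normalized library size of 1000000 reads, and the deposited values are the log2 of CPM with 0.5 reads added. A gene was taken as switched on when each of the 3 untreated libraries had a log2 CPM under 1, which is 2 CPM, when each of the 3 dox-treated libraries lay above the highest untreated one, and when the means of log2 CPM differed by at least 2, a 4-fold difference. The rule found 135 genes, and 2 of them, *Aire* and *Car8*, were left out by choice. The genes were chosen by the dox-treated and untreated values of these same libraries, so their levels and differences are a description, without a test. *Nanog* itself is 1 of the 133.

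The cells were megakaryocyte–erythroid progenitors (MEPs), sorted from bone marrow as lineage-negative, cKit+ and Sca1- cells by CD34 and CD16/32 staining. All mice were adult Nanog-tg animals of the CD-1 strain, and the dox-treated group received dox in the drinking water for 5 days. Both groups carry the same pair of insertions, the dox-dependent activator M2-rtTA at Rosa26 and a *Nanog* cDNA under a tetO promoter downstream of *Col1a1*. Rosa26 is active in most tissues and dox was given to the whole animal, so *Nanog* was not limited to MEPs. No library comes from mice given dox without the transgene, and effects of dox and of NANOG cannot be told apart here. The sources do not say whether the 3 replicates of a group were separate mice or pools, and the p-values given for other genes measure only the spread between these samples, which may be technical.

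NANOG is a homeodomain transcription factor of the early embryo and of embryonic stem cells, where it acts with OCT4 and SOX2 to keep cells pluripotent, and it is normally silent in adult blood. MEPs divide and mature into red blood cells and into megakaryocytes, the large cells that release platelets. The erythroid branch is run by GATA1, TAL1 and KLF1. GATA1 binds GATA motifs and TAL1 binds E-boxes, and no motif was searched for KLF1 below. Genes of nerve, skin, liver or heart are usually kept off in such cells by closed chromatin and, at many promoters, by DNA methylation.

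The promoters of 4 switched-on genes are shown because the results turn on these genes. They are *Trnp1* and *She*, which are among the 5 largest differences, and *P2ry14* and *Dsp*, which after *Nanog* had the highest mean CPM with dox. The sequences are from RefSeq on GRCm38.p6, 5′ to 3′ on the strand of the gene, from 250 bases before the transcription start to 50 after it. Capitals mark matches on either strand to 8 short motifs, TAATGG for NANOG, ATGCAAAT for the octamer, ACAATG for SOX factors, AGATAA for GATA factors, CAGATG for an E-box, AGGAAG for ETS factors, GGGCGG for a GC box and TATAAA for a TATA box. On the opposite strand a motif reads as its reverse complement, so that CCGCCC is a GC box.
*Trnp1*, chr4:133498501-133498800, minus strand: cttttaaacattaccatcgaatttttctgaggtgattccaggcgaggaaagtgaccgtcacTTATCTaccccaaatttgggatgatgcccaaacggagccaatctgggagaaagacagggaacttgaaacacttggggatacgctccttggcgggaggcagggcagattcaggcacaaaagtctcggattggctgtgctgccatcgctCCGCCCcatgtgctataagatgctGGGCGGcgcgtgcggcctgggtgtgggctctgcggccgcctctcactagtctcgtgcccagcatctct
*She*, chr3:89831120-89831419, plus strand: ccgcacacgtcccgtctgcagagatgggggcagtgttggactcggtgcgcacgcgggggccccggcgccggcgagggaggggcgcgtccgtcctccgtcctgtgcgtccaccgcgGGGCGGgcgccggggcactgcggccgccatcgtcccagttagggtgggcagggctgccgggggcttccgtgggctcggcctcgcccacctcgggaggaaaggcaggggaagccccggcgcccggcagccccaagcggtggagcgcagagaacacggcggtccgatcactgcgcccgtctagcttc
*P2ry14*, chr3:59153443-59153742, minus strand: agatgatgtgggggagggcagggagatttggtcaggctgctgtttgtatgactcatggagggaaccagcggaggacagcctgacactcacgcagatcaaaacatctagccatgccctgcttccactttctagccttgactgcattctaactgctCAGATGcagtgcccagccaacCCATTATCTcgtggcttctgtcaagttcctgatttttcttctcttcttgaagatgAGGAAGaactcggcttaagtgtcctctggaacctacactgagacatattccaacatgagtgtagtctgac
*Dsp*, chr13:38151044-38151343, plus strand: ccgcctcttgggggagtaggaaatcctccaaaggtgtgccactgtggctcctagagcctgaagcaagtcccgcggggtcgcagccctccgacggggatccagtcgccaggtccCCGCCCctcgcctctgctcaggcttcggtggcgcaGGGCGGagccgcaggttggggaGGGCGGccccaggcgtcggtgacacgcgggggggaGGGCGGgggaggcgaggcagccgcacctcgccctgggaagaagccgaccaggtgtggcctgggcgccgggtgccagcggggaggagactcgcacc
The *She* and *Dsp* promoters held only GC boxes among the 8 motifs, 1 and 4 of them. The *Trnp1* promoter held 1 GATA motif and 2 GC boxes. That of *P2ry14*, the first of 4 starts listed for this gene, held no GC box. It had an E-box, an ETS motif and, in the run CCATTATCT, a NANOG motif and a GATA motif that overlap on the same strand.

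*Nanog* was read in every dox-treated library and was close to nothing without dox. Its level was 1256, 1459.8 and 1024 CPM in dox-treated replicates 1, 2 and 3, and 0.7, 0.961 and 0.091 CPM in untreated replicates 1, 2 and 3, which is 9, 13 and 1 reads. The groups lay far apart, and the ratio of pooled levels was 2008, with a 95% exact interval from 1338 to 3168 for counting error only. Reads of the transgene cDNA and of the gene on chromosome 6 fall on the same gene name and cannot be told apart.

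Of the 12101 genes listed, 777 (6.42%) had all untreated libraries under the ceiling, and 17.4% of these met the whole rule. Over all genes, the dox-treated libraries lay above the untreated ones without overlap in 17.7%, and the means differed by at least 2 in 2.11%. The whole rule was met by 1.12%. These shares are the background to the set and, since the rule used the same contrast, nothing is read from the comparison. By the mirror rule, near silent with dox, 76 genes were found.

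The dox-treated libraries were not alike in these genes, and values of the leading genes are therefore given for each library. For many of the others only a mean or a difference is given. Replicate 3 was the lowest of the 3 in 113 of the 133 genes (85.0%), against 44.2% of all listed genes. Without it the rule gave 184 genes, of which 131 were among the 133.

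The table was filtered before it was deposited, which bears on every gene in the set. By the deposited log2 values, which include the added reads, a level above 1 CPM was met by all 12101 genes in 2 or more libraries. Without the added reads *Cd5l* fell short of this limit, at 0.957, 0.968 and 1.22 CPM in the dox-treated replicates and less in the untreated ones. Fewer than 2 untreated libraries were over 1 CPM for 117 of the 133, so these genes met this limit only with dox-treated libraries. If this limit was the filter, they had to be higher with dox to be listed at all. The other 16 had at least 1 CPM in 2 untreated libraries. In 89 genes no untreated library was over 1 CPM. A gene that stayed under the filter in both groups was not analysed here.

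Silence without dox was a matter of a few reads. Libraries held from 11264803 to 16153600 reads on listed genes, and 3 reads, the amount that a count of 0 still allows, were from 0.193 to 0.273 CPM. No untreated read was found for *Htr5b* or *Pdzrn3*. With these, 20 genes had at most 3 reads in each untreated library, and 23 of the 133 had no read in at least 1 of them. Across the set the median of the mean level was 0.517 CPM without dox and 4.61 CPM with dox. The mean with dox was at least 5 CPM in 61 genes, at least 10 CPM in 24 and at least 20 CPM in 10, and the lowest was 1.05 CPM in *Cd5l*. The difference of mean log2 CPM had a median of 2.83, where all listed genes had -0.03. It was 4 or more in 36 genes, from 3 to under 4 in 25 and under 3 in 72. The differences of genes with few or no untreated reads depend on the 0.5 reads added before the log.

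**Figure D1:**
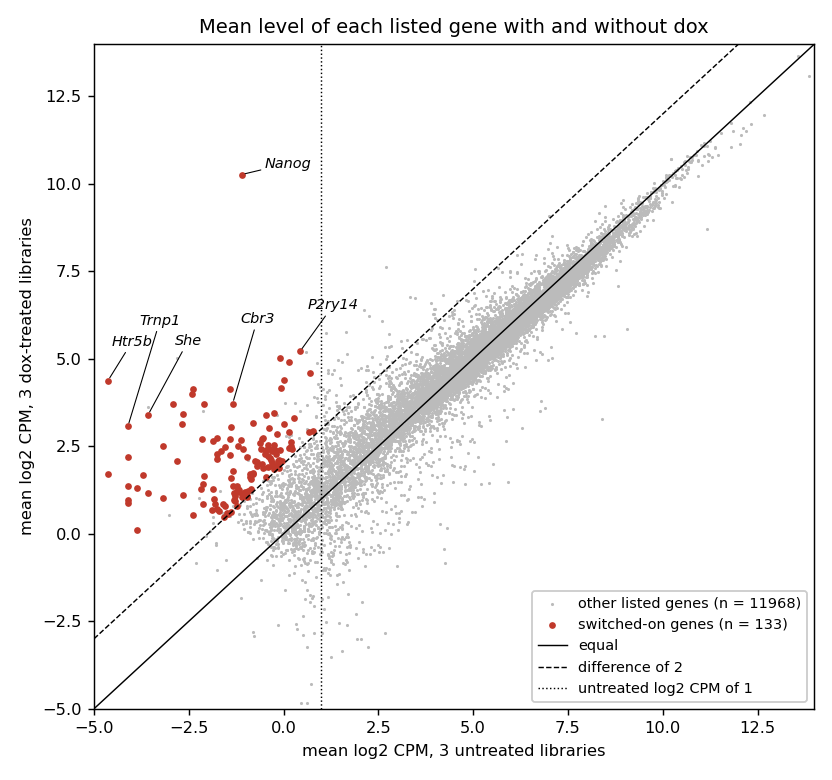
Mean log2 CPM of each listed gene over the 3 untreated libraries (horizontal axis) and over the 3 dox-treated libraries (vertical axis). Red points are the 133 switched-on genes, grey points the other 11968, and lines mark equality, a difference of 2 and an untreated log2 CPM of 1. *Nanog* stands alone at the top, and most of the other red points lie under 5 on the vertical axis.

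In a bulk sample more RNA per cell and more cells of a type that expresses the gene cannot be told apart. This holds for every difference below.

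Genes grouped by role under neuronal signalling, axon and synapse, called neuronal genes below, made up 19 of the set. The grouping is by role and does not mean that a gene is limited to nerve cells. *Htr5b*, a G protein-coupled serotonin receptor of brain, was the extreme case. It had 24.7, 21.7 and 16.5 CPM in dox-treated replicates 1, 2 and 3, from 336, 291 and 257 reads, and no read in any untreated library. Set against the 3 reads that a count of 0 over the pooled untreated libraries allows, it was at least 259-fold higher with dox. The dox-treated libraries were close together, at 21.0 ± 4.17 CPM (SD, n = 3). *Htr2a* was the only other serotonin receptor of 14 looked up that was in the table. It had 11.1 ± 5.03 CPM with dox and 4.22 ± 1.09 CPM without (SD, n = 3) and did not pass a test across all genes with limma (Benjamini–Hochberg adjusted p = 0.079), though it did with a mean-variance trend.

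*Trnp1*, a nuclear protein of neural progenitors, had 3.9, 15.3 and 9.82 CPM in the dox-treated replicates and a single read, in untreated replicate 1. It was unlike most of the set in that its lowest dox-treated level was in replicate 1. *Farp1*, an exchange factor for small GTPases that acts in dendrites and synapses, had 25.9, 24.7 and 8.66 CPM with dox and 0.155, 0.222 and 0.091 CPM without. *Rapgef4*, which encodes the cAMP-activated exchange factor EPAC2 of brain and endocrine cells, had 26.1, 27.1 and 5.71 CPM with dox and 0.389, 0.0739 and 0.091 CPM without. For both, dox-treated replicates 1 and 2 were nearly equal and replicate 3 was the lowest of the group, yet far above every untreated library.

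The other receptors and guidance molecules in this group were fewer in reads. *Ephb2*, an ephrin receptor, had 17.5, 8.93 and 1.86 CPM with dox and 0.778, 0 and 0.819 CPM without. *Neo1*, the netrin and repulsive guidance receptor neogenin, had a mean of 8.47 CPM with dox against 0.426 CPM. *Sema7a*, a membrane-anchored semaphorin, and *Cntn3*, a contactin of the neuronal surface, differed by 2.53 and 2.7 on the log2 scale. *Lrrn3*, a leucine-rich repeat protein of neurons, had at most 1 read in each untreated library and 35, 40 and 22 reads in the dox-treated ones.

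A trio of genes whose products meet at the axon initial segment, the start of the axon where action potentials arise, was in the set. *Ank3* encodes its scaffold ankyrin G, *Spnb4* its β4 spectrin and *Nrcam* a cell adhesion molecule bound by ankyrin. *Ank3* had 6.92, 6.03 and 1.8 CPM with dox and 0.155, 0.0739 and 0.091 CPM without. *Spnb4* had 1.84, 1.86 and 1.48 CPM with dox and 0.155, 0.369 and 0.455 CPM without, and *Nrcam* had 1.84, 1.19 and 1.35 and 0.0778, 0.443 and 0.819 CPM. The last of these was among the 3 genes nearest to the lower limit of the difference, and the levels of both it and *Spnb4* stayed under 2 CPM with dox. This trio was picked out after the genes were known.

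Of the remaining neuronal genes, *Tspan7*, a tetraspanin of neurons, had 17.7, 29.4 and 1.35 CPM with dox and 0.311, 0.665 and 0.728 CPM without, the widest gap in the set between replicate 3 and the other dox-treated libraries. *Cnrip1*, whose product binds the cannabinoid receptor CB1, had 9.06, 11.4 and 1.09 CPM with dox. *Syt3* encodes a synaptotagmin, *Pnck* a calmodulin-dependent kinase, *Nmnat2* an axonal NAD-synthesis enzyme and *Mpped2* a metallophosphoesterase. Their differences ran from 2.09 in *Mpped2* to 2.97 in *Nmnat2*. *Nmnat2* was higher in dox-treated replicate 3 than in the other dox-treated libraries.

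Most defining neuronal markers were not listed. Of a list of 23, among them *Snap25*, *Syn1*, *Syp*, *Map2* and *Rbfox3*, 21 were not in the table. The 2 that were listed summed to between 2.82 and 4.09 CPM with dox and between 3.34 and 4.82 CPM without. *Tubb3*, a neuronal tubulin, was lower with dox, with a difference of mean log2 CPM and its standard error of -1.9 ± 0.26 (limma, Benjamini–Hochberg adjusted p = 0.018). Differences of other genes are given in the same way. The call for *Tubb3* was lost without dox-treated replicate 1 or 2 or untreated replicate 3.

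Immune genes came to 20. Per kb of exon, 4 of them had the highest levels with dox after *Nanog*. *P2ry14*, a receptor for UDP-glucose that is found on blood progenitors and leukocytes, had 48.4, 73.6 and 14.2 CPM in dox-treated replicates 1, 2 and 3 and 1.71, 0.961 and 1.36 CPM in untreated replicates 1, 2 and 3. The pooled ratio was 32.8, with a counting interval from 24.8 to 44.4. This interval covers counting error only and leaves out the spread between libraries. *Pik3r6*, an adaptor subunit of phosphoinositide 3-kinase γ, had 37.3, 45.1 and 8.6 CPM with dox and 1.56, 1.48 and 1.73 CPM without, which put it close under the ceiling in all 3 untreated libraries.

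*Lilrb4* and *Gp49a* are neighbouring genes on chromosome 10 of NCBIM37 (51200446 to 51216419 and 51200438 to 51206122) for an inhibitory immunoglobulin-like receptor of mast and myeloid cells and its close relative. They share 114 bases of exon on the same strand, and 30.7% and 30.5% of the 50-base stretches of their coding transcripts occur in the other gene, so their reads may have been split between them. *Lilrb4* had 44.8, 61.3 and 9.82 CPM with dox and 1.01, 0.813 and 1.46 CPM without. *Gp49a* had 33.3, 43 and 6.35 and 1.71, 0.591 and 0.91 CPM. In both, dox-treated replicate 2 was the highest and replicate 3 the lowest.

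*Serpina3f*, a serine protease inhibitor of the expanded mouse Serpina3 cluster, had 19.8, 19 and 5.9 CPM with dox and only 2, 3 and 0 reads without. Some of its coding sequence (8.58% of 50-base stretches) is also found in other genes. Several genes known from T-cell signalling, picked out after the genes were known, were in the set. *Themis*, needed for thymocyte selection, had 16.8, 14.2 and 2.37 CPM with dox and 0.7, 0.296 and 0.182 CPM without. *Lax1*, *Trat1* and *Grap*, adaptor proteins below antigen receptors, had means of 6.15, 4.71 and 4.49 CPM with dox against 0.709, 0.889 and 0.915 CPM. *Trbv13-2*, a variable segment of the T-cell receptor β locus, had 7.88, 7.52 and 2.37 CPM with dox and 0.7, 0.739 and 1.36 CPM without.

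Most markers of T cells were not listed. Of 14 T and NK cell markers, 10 were not in the table, the CD3 genes, *Cd4* and *Cd8a* among them. The other 4 summed to between 13.3 and 26.6 CPM with dox and to between 33.2 and 57.8 CPM without, where most of it was *Nkg7*. The 3 without *Nkg7* summed to between 5.14 and 18.8 CPM with dox and to between 5.46 and 8.5 CPM without, so the groups overlapped. *Nkg7*, a granule protein of cytotoxic cells, was lower with dox at -2.12 ± 0.28 (limma, adjusted p = 0.016), and *Lck*, *Thy1* and *Il7r* did not pass the test, with adjusted p = 0.63, 0.98 and 0.31. The call for *Nkg7* was lost without dox-treated replicate 1 or 2 or untreated replicate 3.

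The lectins were *Clec1a*, with 6.18, 9.6 and 2.31 CPM with dox, and *Clec10a*, the macrophage galactose-type lectin, with 4.86, 4.17 and 1.99 CPM. *Clec10a* shares 16.7% of its 50-base stretches with *Mgl2*. *P2ry10*, a lysophospholipid receptor, had 6.09 CPM with dox against 0.621 CPM, and *Gpr82*, an orphan receptor, 2.46 against 0.0518 CPM. *Gpr82* was among the most even of the set with dox, at 2.36, 2.53 and 2.5 CPM. *St6gal1*, a sialyltransferase, *Slfn5* and *Slfn14-ps*, of the Schlafen family, *Fcgrt*, the neonatal Fc receptor, *Fas*, the death receptor, and *Cd5l*, a secreted macrophage protein, made up the rest. Their differences lay between 2.02 for *Fas* and 3.97 for *Cd5l*.

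Junction and epidermal genes were 12. *Dsp* encodes desmoplakin, which anchors keratin filaments to desmosomes in skin and intercalated discs in heart. It had 59, 61.5 and 9.63 CPM in the dox-treated replicates and 1.79, 0.739 and 0.546 CPM in the untreated ones. Replicate 3 was the lowest of the dox-treated libraries by far and still above every untreated one. *Cgnl1*, which encodes the tight and adherens junction protein paracingulin, had 24.7, 20.2 and 2.44 CPM with dox and 0.233, 0.296 and 0 CPM without.

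The tight junction was also met in *F11r*, the adhesion molecule JAM-A, with 12.2 CPM with dox and 0.978 CPM without on average, and in *Marveld2*, or tricellulin, with 1.55, 3.95 and 5.84 CPM with dox. *Marveld2* was highest in dox-treated replicate 3. *Perp*, a desmosomal membrane protein, *Smagp*, a small transmembrane protein of epithelia, and *Tgm1*, the transglutaminase of the cornified envelope, stayed under 4 CPM in every library. *Lgals7*, the epidermal galectin-7, was more even, at 7.44, 6.77 and 5.39 CPM with dox and 0.233, 0.443 and 0.364 CPM without. *Shroom4*, an actin-binding protein, had 19.9, 22.3 and 2.57 CPM with dox. *Pls1*, a microvillar plastin, *Myo5c*, an epithelial myosin motor, and *Lpp*, a focal adhesion LIM protein, differed by 3.52, 2.82 and 2.14 on the log2 scale.

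Transcription and chromatin genes numbered 12 with *Nanog*. *Pparg*, the nuclear receptor of fat cell differentiation, had a single untreated read and 4.57, 4.69 and 4.36 CPM with dox, among the most even in the set. *Hmga2*, an architectural chromatin protein of embryonic and fetal cells, had 23.9, 10.3 and 5.39 CPM with dox and 0.622, 0.517 and 1.55 CPM without. *Id1*, an inhibitor of basic helix-loop-helix factors, had 4.71, 5.06 and 3.59 CPM with dox and 0.311, 0.296 and 0.182 CPM without. *Tcf23*, itself a helix-loop-helix protein, and *Cxxc4*, a CXXC-domain inhibitor of Wnt signalling, had 3.3 and 2.11 CPM with dox and no read in 2 of 3 untreated libraries.

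*Trim66*, a bromodomain protein of testis, had 10.6, 12.1 and 1.28 CPM with dox. *Dpf1*, a subunit of the neuronal chromatin remodelling complex, had 4.49, 5.43 and 4.49 CPM with dox and 0.778, 0.739 and 1 CPM without. The differences of *Stox1*, *Zfp580* and *Maff*, a small MAF protein, lay between 2.04 and 2.33. Apart from *Nanog*, none of these genes was on the list of 33 pluripotency genes.

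Few other pluripotency genes were listed. Of the 33, 26 were not in the table, including *Pou5f1*, *Sox2*, *Esrrb*, *Zfp42* and *Lin28a*. Of the 6 tested beside *Nanog* with limma, 0 passed and 5 had an unadjusted p under 0.05, as had 29.2% of all genes tested. With voom precision weights or with a mean-variance trend 1 was lower, and under a replicate block, a term for the replicate number, 1, *Klf5*, was higher (adjusted p = 0.047). Without dox-treated replicate 3, 1 was higher and 1 was lower. *Klf5* came at 1.61 ± 0.46 (adjusted p = 0.086), *Gdf3* at -0.69 ± 0.18 (adjusted p = 0.073), *Zfp281* at 0.36 ± 0.1 (adjusted p = 0.09) and *Klf2* at -1.01 ± 0.36 (adjusted p = 0.13). Of 24 germline genes only *Ddx4* was listed, at 0.66 ± 0.18 (adjusted p = 0.077, unadjusted p = 0.01).

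Enzymes of lipid, drug and heme metabolism were 13, and 4 of them are best known from liver. *Ephx1*, the microsomal epoxide hydrolase, had 28.9, 34.5 and 2.25 CPM with dox and 0.467, 0.0739 and 0.182 CPM without. Its level in dox-treated replicate 3 was 3.79 below the mean of the other 2 on the log2 scale. *Cbr3*, a carbonyl reductase, was close to even, at 15, 14.4 and 10.5 CPM with dox, and had 0.622, 0.369 and 0.182 CPM without. *Hmox1*, which encodes the enzyme that opens the heme ring, had 6.92, 9.45 and 5.65 CPM with dox and 0.778, 0.961 and 0.819 CPM without.

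The cytochrome P450 genes *Cyp2d22*, *Cyp2j6* and *Cyp2j9* had means of 3.58, 4.92 and 3.7 CPM with dox. The latter pair lies side by side on chromosome 4. *Plcd3*, a phospholipase C, was highest in replicate 2 at 5.45, 15.4 and 3.27 CPM in the dox-treated replicates. *Acot4*, a peroxisomal thioesterase, *Abhd6*, a monoacylglycerol lipase, *Elovl7*, a fatty acid elongase, *Bco2*, which cleaves carotenoids, *Xpnpep2*, a membrane aminopeptidase, and *Mgat4c*, a glycosyltransferase, differed by between 2.33 and 4.97. *Acot4* also shares 12.1% of its 50-base stretches with other genes.

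Channels and transporters gave 10 genes, all of them lowest in replicate 3 of the dox-treated libraries. *Kcnj5*, a G protein-gated potassium channel of heart, had 37, 33.9 and 4.68 CPM with dox and 0.778, 0.887 and 1.09 CPM without. Its replicate 3 lay 2.91 below the mean of the other 2 on the log2 scale, and was still above every untreated library. *Kcng1*, *Kcne3* and *Kcnab3*, modifier subunits of potassium channels, had means of 13.6, 4.02 and 2.61 CPM with dox. *Slc39a4*, the intestinal zinc importer, had 10.1, 15.6 and 6.03 CPM with dox and 0.855, 1.18 and 1.55 CPM without. *Slc16a11*, of the monocarboxylate transporter family, had 7.22 CPM with dox on average. *Slc17a4*, an anion transporter, *Mfsd7a*, of the major facilitator family, and *Mcoln2*, an endolysosomal cation channel, differed by 3.29, 2.44 and 2.32.

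Matrix and integrin genes were 8, and in none of them was dox-treated replicate 3 within 1 log2 unit of the mean of the others. *Mamdc2*, a secreted protein with MAM domains, had 32.8, 37.4 and 4.3 CPM with dox and 0.622, 0.222 and 0.273 CPM without. *Lama1*, the laminin α1 chain of early embryonic basement membranes, had 7.66, 7.67 and 3.14 CPM with dox and 3, 1 and 0 reads without. *Col28a1*, a collagen of peripheral nerve, had 9.06, 16.5 and 4.43 CPM with dox, and 9 of its 10 untreated reads were in replicate 2. The integrin chains *Itga9* and *Itgb5*, *Reck*, a membrane-bound inhibitor of matrix proteases, *Spock2*, a proteoglycan, and *Myof*, a membrane repair protein, differed by between 2.24 and 3.7.

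Marker genes of stroma moved with these. Of 15 stromal markers 13 were not in the table, among them *Col1a1*, *Col3a1*, *Cxcl12* and *Pdgfra*. The other 2 were both higher with dox, *Col1a2*, a type I collagen chain, at 3.5 ± 0.57 (limma, adjusted p = 0.026) and *Pdgfrb*, a growth factor receptor of pericytes and fibroblasts, at 2.02 ± 0.31 (adjusted p = 0.023). Together they had 126, 140 and 45.6 CPM in dox-treated replicates 1, 2 and 3 and from 8.05 to 15.2 CPM without dox, so they too were lowest in replicate 3. What part these cells have in the result was not tested. Without any single library other than dox-treated replicate 3, neither passed, and without that one both did.

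The endothelial genes of the set were *She*, an SH2-domain adaptor, *Robo4*, a roundabout receptor of vessels that also marks blood stem cells, and *Rhoj*, a GTPase of endothelial migration. *She* had 19.7, 18.5 and 3.14 CPM with dox, and untreated replicates 1, 2 and 3 held 1, 1 and 0 reads of it. Its dox-treated replicates 1 and 2 were nearly equal, and replicate 3 was 2.59 lower than their mean on the log2 scale. *Robo4* had 2.43, 2.68 and 1.6 CPM with dox and 0.933, 0.148 and 0.546 CPM without. Its pooled ratio was 4.12, with an interval from 2.53 to 7.06 for counting error only. *Rhoj* had 4.57, 5.66 and 1.8 CPM with dox and 0.778, 0.813 and 0.819 CPM without. The relatives of *She* in the SHB and SHC adaptor families were on in both groups. *Shb*, *Shc1*, *Shf* and *Shc4* gave 5.56 ± 1.16 CPM with dox and 8.2 ± 0.623 CPM without (SD, n = 3), 148 ± 5.75 CPM with dox and 178 ± 3.76 CPM without (SD, n = 3), 7.55 ± 0.43 CPM with dox and 7.19 ± 0.691 CPM without (SD, n = 3) and 2.57 ± 0.455 CPM with dox and 2.43 ± 0.648 CPM without (SD, n = 3), and with limma, also with voom precision weights, 0 passed, while 2 had an unadjusted p under 0.05, against 29.2% of all genes tested. Without dox-treated replicate 3, 1 was lower.

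Of 27 endothelial markers, 13 were not in the table, with *Cdh5*, *Cldn5*, *Flt1* and *Sox17* among them. Of the 12 tested beside *She* and *Robo4*, 3 were higher with dox and 1 was lower, where 4.59% of all 12088 genes tested were higher and 3.18% lower. *Pecam1*, an adhesion molecule of endothelium and platelets, came at 2.47 ± 0.43 (limma, adjusted p = 0.031), *Icam2* at 0.82 ± 0.15 (adjusted p = 0.034) and *Tek*, the angiopoietin receptor that blood stem cells share, at 3.36 ± 0.72 (adjusted p = 0.047). *Vwf*, the von Willebrand factor of endothelium and megakaryocytes, was lower at -1.31 ± 0.18 (adjusted p = 0.018). The list summed to between 363 and 581 CPM with dox and to between 333 and 383 CPM without, so the groups overlapped in dox-treated replicate 3. Without dox-treated replicate 3, 6 were higher, and without any other single library 0 were. The call for *Vwf* was lost without dox-treated replicate 2 or untreated replicate 1 or 3. The part of these cells in the result was not tested.

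Splicing regulators were 2. *Rbm20*, which directs splicing of titin in heart, had 5.6, 8.56 and 8.92 CPM with dox and 1.87, 1.26 and 1.64 CPM without, so that replicate 3 was the highest of its group, and it was near the untreated ceiling. *Rbfox2* had 2.43, 4.24 and 1.35 CPM with dox and 0.7, 0.517 and 0.364 CPM without.

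The largest group by role, 25 genes, was other signalling and trafficking. *Pdzrn3*, a ubiquitin ligase with PDZ domains known from muscle, had 4.49, 2.68 and 2.89 CPM with dox, from 61, 36 and 45 reads, and no untreated read, and was at least 41.5-fold higher by the limit of 3 pooled reads. *Fgf11*, an intracellular FGF-family protein, had 6.11, 8.49 and 1.99 CPM with dox and 0.311, 0.222 and 0.546 CPM without. *Npr2*, the receptor for C-type natriuretic peptide, had 7.8, 6.92 and 1.8 CPM with dox and 0.622, 0.591 and 1 CPM without. In *Pdzrn3* the dox-treated levels were close, and in the other pair replicate 3 was the lowest.

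GTPase regulators and relatives in this group were *Arhgap28*, *Tbc1d30*, *Rab19*, *Rab40b* and *Rasd1*, with means from 2.27 CPM in *Rasd1* to 7 CPM in *Arhgap28* with dox. Ubiquitin ligase components were *Rnf150*, *Trim62* and *Klhl4*, with 5.33, 6.02 and 3.38 CPM. *Akap6* and *Fkbp1b*, which organise kinase signalling and calcium release in heart, had 4.02 and 2.5 CPM. Genes known from testis or epididymis were *Armc3*, *Insl6* and *Gpr64*, with 1.58, 1.51 and 3.15 CPM. Each of these had less than 1 CPM in every untreated library except *Akap6*, *Arhgap28*, *Rab19*, *Rnf150*, *Tbc1d30* and *Trim62*.

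*Nradd*, a death-domain relative of the neurotrophin receptor p75, had 9.57, 9.38 and 4.62 CPM with dox and 1.17, 1.26 and 0.819 CPM without. *Rps6kl1* is a kinase-like protein, *Mpp4* a scaffold of retina, *Tmprss7* a membrane protease, *Myo1h* a myosin, *Evc* a ciliary protein and *Cisd3* a mitochondrial iron-sulfur protein. Together with *Lrrc66* and *Srcrb4d* they differed by between 2.06 and 3.46. Exons of *Mpp4* overlap another gene on the same strand, and *Myo1h* shares 1010 bases of exon with *Kctd10* on the opposite strand. Whether strand was used in counting is not given in the sources used here, and the reads of such pairs cannot be assigned with certainty.

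The 9 genes without a described product were *B930095G15Rik*, *5033430I15Rik*, *6820408C15Rik*, *A430105I19Rik*, *Gm4759*, *Gm12879*, *Gm13597*, *Gm14117* and *Gm17427*. *Gm17427*, a long non-coding RNA by annotation, lies with 100% of its exon bases opposite *Klf7*. *B930095G15Rik*, an annotated processed transcript, lies inside *Farp1* on its strand and had 3.46, 3.28 and 1.48 CPM with dox and 1 untreated read. By annotation, 126 of the 133 genes were protein coding, 4 were pseudogenes, and 1 each was a long non-coding RNA, a processed transcript and a receptor variable segment.

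**Figure D2:**
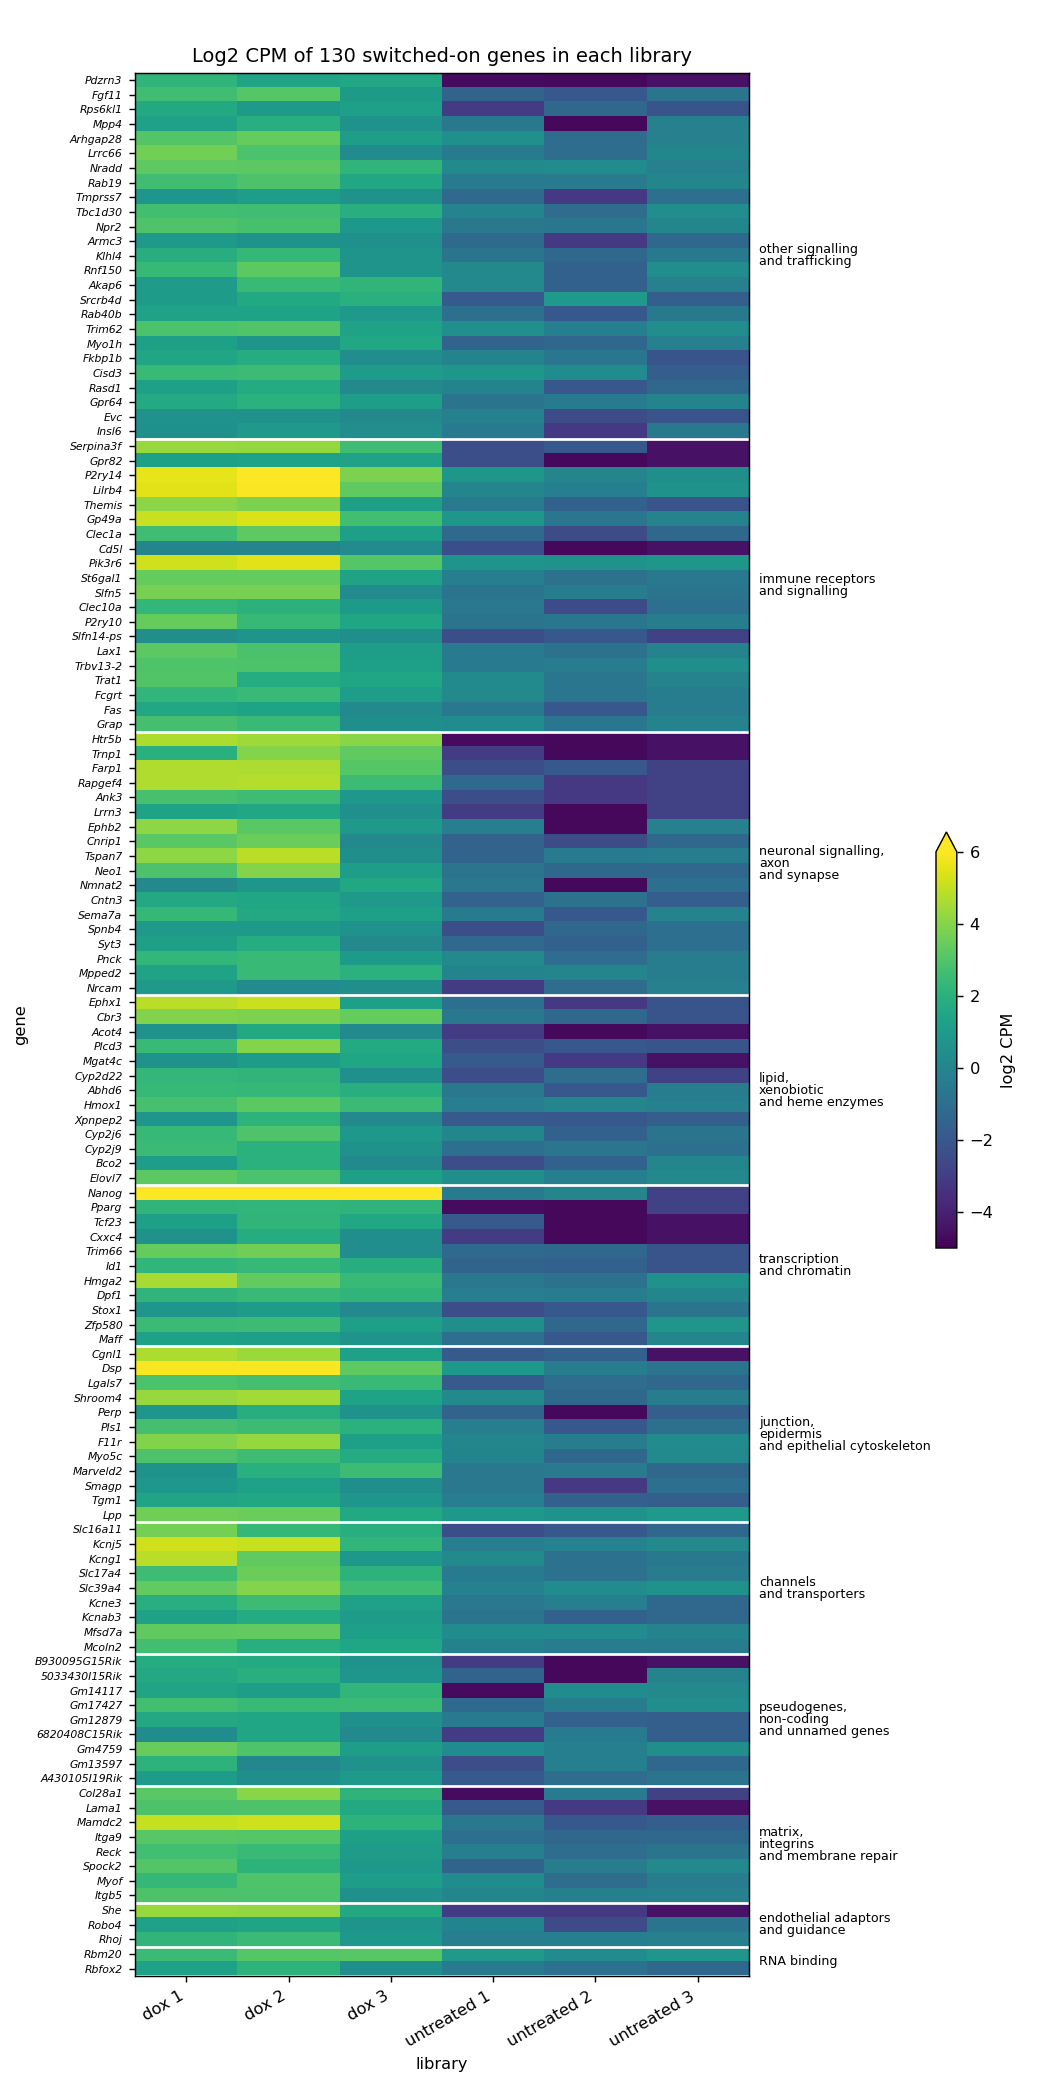
Log2 CPM of 130 of the 133 switched-on genes (rows, by role and then by difference) in the 6 libraries (columns), with 0.5 reads added. Colours run from -5 to 6, and *Nanog* with dox and *P2ry14* in dox-treated replicate 2 lie above the scale. The third column is darker than the first and second in most rows, while every row is darker still in the 3 untreated columns.

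By usual tissue, from background knowledge, 26 of the 133 were genes of the nervous system, 17 of immune cells, 15 of epithelium, 6 of heart or muscle, 4 of liver, 4 of germline, 3 of the early embryo, 3 of endothelium and 1 of fat. A further 17 are broadly expressed and 37 were not assigned. The set thus held genes of many tissues. By role, the median difference ran from 2.19 in the 2 splicing regulators to 3.81 in transcription and chromatin, and was 3.8 in the neuronal genes, 3.33 in junction and epidermal genes, 3.26 in immune genes and 2.5 in other signalling.

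**Figure D3:**
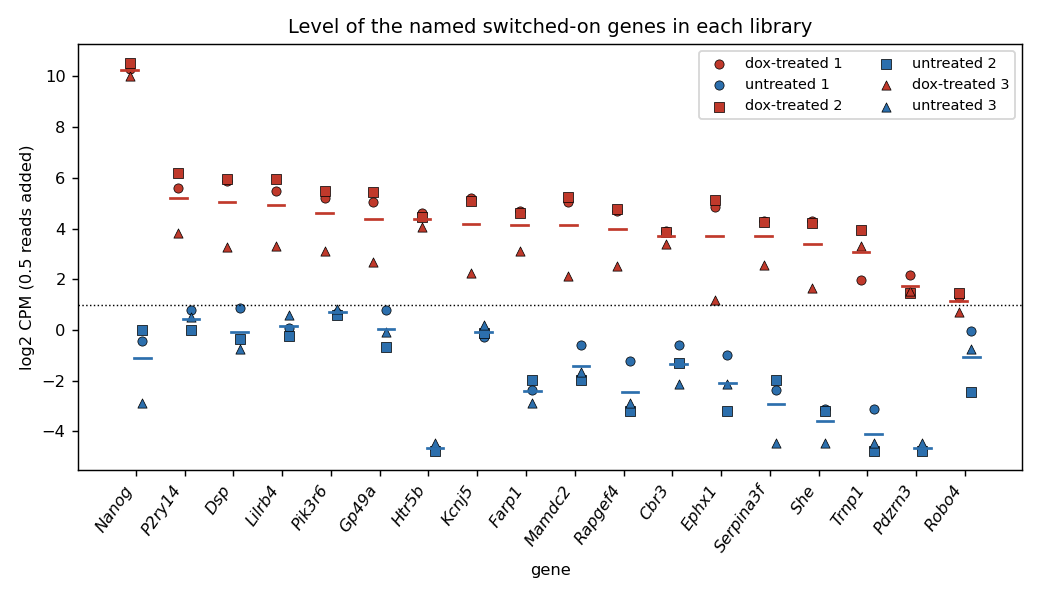
Log2 CPM (0.5 reads added) of 18 switched-on genes in each library, ordered by mean with dox. Red symbols are dox-treated and blue symbols untreated libraries, the shape gives the replicate, bars are group means and the dotted line is the untreated ceiling of 1. In 12 of the 18 genes the red triangle of replicate 3 lies more than 1 below the mean of the other red symbols.

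Genes can be compared in level only per length. Per kb of exon, *Nanog* was at 556 CPM with dox. *Lilrb4* followed at 25.9 and *P2ry14* at 25.3 CPM per kb, then *Trbv13-2* at 18.6, *Gp49a* at 13.1, *Cbr3* at 11.4, *Ephx1* at 10.9, *Htr5b* at 10.8, *Pik3r6* at 8.37 and *Mamdc2* at 7.44. Below *Nanog* each step to the next gene was smaller than the SD over the dox-treated libraries of at least 1 gene of the pair, so these neighbours in the order do not differ beyond their spread. *Trbv13-2* is a short segment, and its level per length rests on a mean of 5.92 CPM.

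The low values of dox-treated replicate 3 varied in size from gene to gene. Its log2 CPM was a median of 1.19 below the mean of replicates 1 and 2, with quartiles at -1.85 and -0.47. Over all listed genes the median was near 0, at -0.003. Replicates 1 and 2 differed from each other by a median of 0.307 on the log2 scale, without regard to sign.

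The gap was 2 or more in 31 genes and from 1 to 2 in 43. *Tspan7*, *Ephx1* and *Slfn5*, with -4.05, -3.79 and -3.41, had the widest gaps. In 57 genes replicate 3 was within 1 of the mean of the other 2, and in 2, *Marveld2* and *Nmnat2*, it was more than 1 above. *Gpr82*, *Pparg*, *Slfn14-ps*, *Gm17427* and *Dpf1* had the smallest range over the dox-treated libraries. These names were chosen after their values were seen.

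*Nanog* was also lowest in replicate 3, by less than most of the set. It had 1024 CPM there against 1256 and 1460 CPM, 0.4 lower on the log2 scale, while the other 132 genes summed to 403 CPM in replicate 3 against 1165 and 1258 CPM. In the untreated replicates 1, 2 and 3 they summed to 83.0, 58.2 and 79.1 CPM. Genes outside the set were low there as well. Of 96 genes that also rose by 2 or more without overlap but were already over the ceiling without dox, 90.6% were lowest in replicate 3, with a median gap of -1.1.

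**Figure D4:**
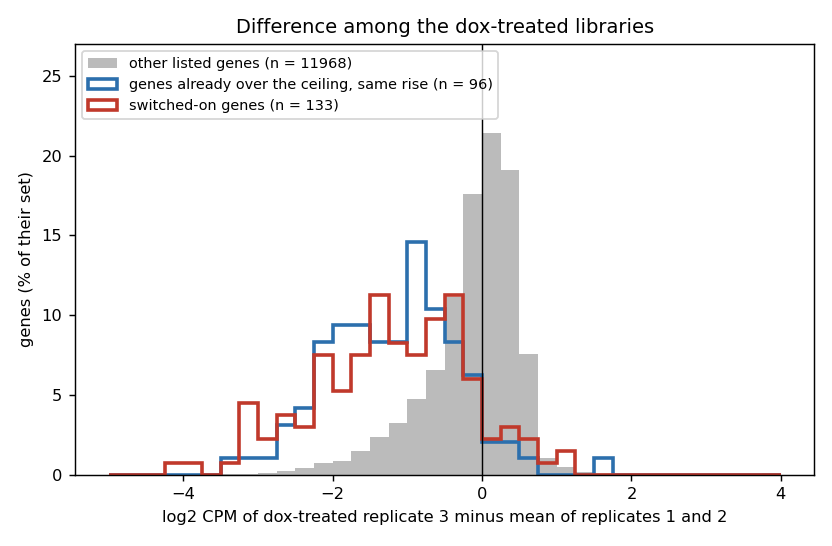
Distribution of the log2 CPM of dox-treated replicate 3 minus the mean of replicates 1 and 2, as percent of each set of genes. The red line is the 133 switched-on genes, the blue line 96 genes with a difference of 2 or more that were already over the ceiling, and grey the other listed genes. Red and blue both centre about 1 below 0, with medians of -1.19 and -1.1.

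Marker sums went with the gap. The 15 stem cell genes, of which 11 were listed, had between 345 and 378 CPM in dox-treated replicates 1 and 2, 159 CPM in replicate 3 and from 74.3 to 149 CPM without dox. The megakaryocyte list had 820, 800 and 439 CPM against a range from 277 to 385 CPM without dox. Much of the fall in replicate 3 was *Itga2b*, with 319, 314 and 66.9 CPM in dox-treated replicates 1, 2 and 3. It had 37.5, 24.1 and 39.2 CPM in untreated replicates 1, 2 and 3. The mean log2 CPM was higher with dox in 15 of the 21 megakaryocyte genes tested, and not in the others. Erythroid genes, in contrast, summed to 5000 and 4837 CPM in dox-treated replicates 1 and 2, which is under the untreated range of 7669 to 8253 CPM, and to 8973 CPM in replicate 3, which is above it. This rests on *Car1* and *Car2*, carbonic anhydrases of red cells. The other 15 summed to 1692, 1798 and 2600.4 CPM in dox-treated replicates 1, 2 and 3 and to between 2726 and 3151 CPM without dox, so that replicate 3 too was below the untreated range. The part of these cells in the gap was not tested.

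The labelled cell type was read from its markers. *Gata1*, the erythroid and megakaryocytic master regulator, was on in both groups at 172 ± 30.8 CPM with dox and 229.5 ± 13.5 CPM without (SD, n = 3), and 17 of 19 erythroid and 21 of 26 megakaryocyte markers were in the table. *Xist* had between 18714 and 28642 reads in the 6 libraries. Of 21 megakaryocyte markers tested 5 were higher with dox, including *Rab27b* at 1.18 ± 0.19 (limma, adjusted p = 0.024), *Gp9* at 1.28 ± 0.23 (adjusted p = 0.032) and *Mmrn1* at 2.72 ± 0.53 (adjusted p = 0.039), and 1, *Vwf*, was lower, against 4.59% and 3.18% of all genes tested. At an unadjusted p under 0.05 there were 16 of the 21, against 29.2% of all. Of 17 erythroid markers tested with limma 0 were higher, also with voom precision weights, and 2 were lower, *Ermap* at -0.77 ± 0.12 (adjusted p = 0.024) and *Epb4.2* at -1.58 ± 0.29 (adjusted p = 0.035), while *Epor* did not pass at -0.59 ± 0.17 (adjusted p = 0.087). At an unadjusted p under 0.05 there were 7 of the 17 erythroid genes, against 29.2% of all genes tested. Without dox-treated replicate 3, 9 megakaryocyte genes were higher and 9 erythroid genes lower, and with any of the others left out instead, at most 1 megakaryocyte gene was higher and 0 erythroid genes were lower, while 1 erythroid gene was higher without dox-treated replicate 1.

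Mast cell markers were higher for 3 and lower for 1 of 13 tested, where 4.59% and 3.18% of all genes tested were, and 8 had an unadjusted p under 0.05, against 29.2% of all. *Cpa3*, a mast cell protease, came at 2.93 ± 0.28 (limma, adjusted p = 0.0096), *Ms4a2*, a chain of the IgE receptor, at 2.76 ± 0.42 (adjusted p = 0.022), *Slc18a2* at 1.5 ± 0.26 (adjusted p = 0.032) and *Alox5* at -1.4 ± 0.22 (adjusted p = 0.023). Defining mast cell genes such as *Fcer1a*, *Hdc*, *Cma1* and *Mcpt4* were not in the table. Without dox-treated replicate 3, 6 were higher, and without any other single library 1 was. The call for *Alox5* was lost without dox-treated replicate 1 or 2 or untreated replicate 1 or 3. The list summed to between 1089 and 1279 CPM with dox and to between 696 and 1033 CPM without.

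Granulocyte-monocyte markers went the other way, with 13 of 18 lower (3.18% of all genes tested) and 0 higher by limma, also 0 higher with voom precision weights, and 17 at an unadjusted p under 0.05, against 29.2% of all genes tested. With each library left out in turn, from 2 (without untreated replicate 3) to 14 were lower. *Elane*, *Ly6c2*, *Fcnb* and *Cebpe* came at -3.22, -3.31, -3.96 and -2.85 on the log2 scale, with adjusted p = 0.011, 0.0083, 0.01 and 0.011 by limma. The list summed to between 566 and 836 CPM with dox and to between 2645 and 6056 CPM without. Of 8 B cell genes 1 was lower, *Blnk* at -1.79 ± 0.32 (adjusted p = 0.034), and *Cd79b* and *Ebf1* did not pass, with adjusted p = 0.49 and 0.68. The call for *Blnk* was lost without dox-treated replicate 2 or any single untreated library. The part of these lists in the switched-on genes was not tested.

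Of the 10 stem cell genes tested beside *Robo4* with limma, 0 passed, also with voom precision weights, and 5 had an unadjusted p under 0.05, against 29.2% of all genes tested. With a mean-variance trend 3 were higher. Without dox-treated replicate 3, 7 were higher. Their median difference was 1.15. *Fgd5* came at 3.46 ± 0.81 (adjusted p = 0.057), *Mecom* at 2.04 ± 0.54 (adjusted p = 0.074), *Hlf* at 1.71 ± 0.48 (adjusted p = 0.083) and *Cd34* at 1.47 ± 0.48 (adjusted p = 0.11). Of 25 tissue antigens that depend on AIRE in thymus, only *Muc6*, a gastric mucin, was listed, and it was higher with dox, at 3.45 ± 0.27 (limma, adjusted p = 0.0057), also without any single library.

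The limits of the rule fell among genes with like values. *Insl6*, *Nrcam* and *Grap* were just inside the difference of 2, at 2.0, 2.01 and 2.02. Reads are given for replicates 1, 2 and 3 in turn. *Insl6* had 19, 25 and 20 reads with dox and 9, 1 and 7 without. *Nrcam* had 25, 16 and 21 reads with dox and 1, 6 and 9 without, and *Grap* 91, 73 and 21 reads with dox and 16, 8 and 10 without. *Zfp108*, *Dnajb5* and *Mrvi1* were just outside, at 2.0, 1.99 and 1.97. *Zfp108* had 23, 18 and 22 reads with dox and 5, 2 and 7 without, *Dnajb5* 42, 33 and 22 reads with dox and 11, 8 and 3 without, and *Mrvi1* 50, 53 and 25 reads with dox and 16, 5 and 8 without.

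Under the ceiling of log2 CPM 1, *Srcrb4d*, *Rbm20* and *Lpp* had their highest untreated value at 0.97, 0.93 and 0.9, and *Avpi1*, *Fgd5* and *Ripply3* lay outside at 1.04, 1.04 and 1.07. *Lpp* had 164, 150 and 50 reads with dox and 23, 20 and 20 without. Of those outside, *Avpi1* had 190, 148 and 101 reads with dox and 26, 19 and 22 without, *Fgd5* 290, 366 and 65 reads with dox and 26, 8 and 15 without, and *Ripply3* 207, 291 and 159 reads with dox and 23, 28 and 15 without. The highest untreated library of each was just over 2 CPM.

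*Srcrb4d* was also the gene nearest to overlap. It had 26 reads in untreated replicate 2 and 3 in each of the others, against 27, 43 and 61 reads with dox. *Grap* and *Bco2* came next, with gaps of 0.1 and 0.18 on the log2 scale. *Bco2* had 30, 55 and 18 reads with dox and 2, 4 and 11 without. *Cadps2*, *Lmo1* and *Atp9a* each fell out because 1 untreated library was 0.28 above the lowest dox-treated library. *Cadps2* had 22, 23 and 18 reads with dox and 18, 0 and 7 without, *Lmo1* 150, 135 and 23 reads with dox and 23, 11 and 9 without, and *Atp9a* 51, 44 and 15 reads with dox and 15, 1 and 2 without. In all, 11 genes met the ceiling and the difference but overlapped. Another 143 met the ceiling without overlap but differed by less than 2.

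The genes were spread over the chromosomes, with 13 on chromosome 11, 10 each on chromosomes 9 and 10 and 10 on the X chromosome. The X chromosome held 7.52% of the set and 3.35% of listed genes. Among these were *Gpr82*, *Tspan7*, *Shroom4*, *P2ry10*, *Xpnpep2*, *Klhl4*, *Pnck* and *Gpr64*, with roles from axon to epithelium. Chromosome 10 held 7.52% against 4.67% of listed genes and chromosome 12, with 8 genes, 6.02% against 3.41%. None was on chromosome 18, which held 2.35% of listed genes, and chromosomes 8 and 17 held 2 each (1.5% against 5.44% and 5.39%). These shares are a description, without a test.

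**Figure D5:**
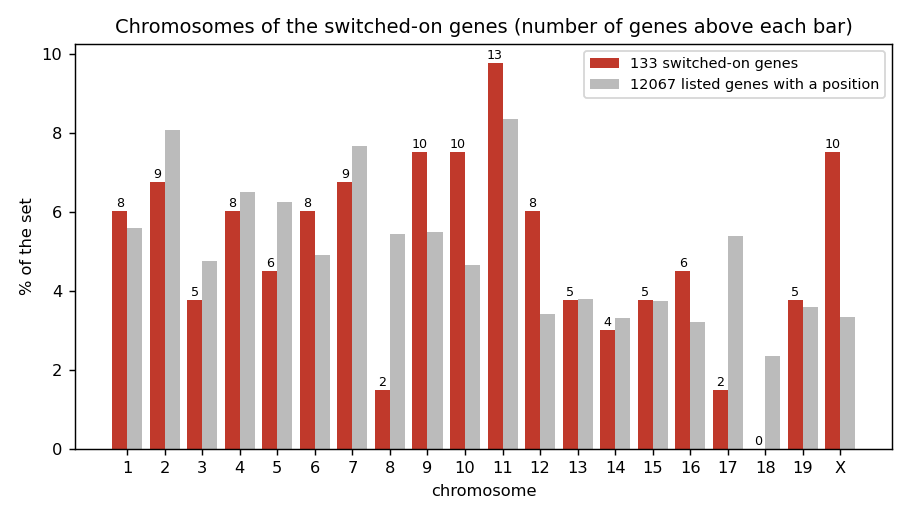
Share of the 133 switched-on genes (red) and of 12067 listed genes with a position (grey) on each chromosome, in percent, from 0. The number above each red bar is the number of switched-on genes, which was highest at 13 on chromosome 11, and the X chromosome has the widest excess of red over grey.

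Within 500 kb of another switched-on gene lay 22 of the 133 (16.5%), and 10.3% of the other listed genes lay as near to one. On chromosome 11 of NCBIM37, *Kcnab3* (69139760 to 69146544), *Fgf11* (69609570 to 69615359), *Clec10a* (69980125 to 69984336) and *Slc16a11* (70026254 to 70029919) formed a chain. Between *Kcnab3* and *Fgf11* lay 20 other listed genes, and none lay between *Clec10a* and *Slc16a11*. Other pairs were *Lama1* and *Arhgap28*, 20068 bases apart on opposite strands, *Cyp2j6* and *Cyp2j9*, *Slfn5* and *Slfn14-ps*, *6820408C15Rik* and *Id1*, *Npr2* and *Reck*, *Slc39a4* and *Rbfox2*, and *Lgals7* and *Dpf1*. Several pairs are members of a gene family or overlap, and so share reads or origin.

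The nearest neighbours did not move as a rule. Of 252 nearest listed genes that were not in the set, 11 (4.37%) were higher and 8 (3.17%) lower with dox, near the 4.59% and 3.18% of all genes tested. Their median difference was 0.03. The places where the transgenes sit held no other switched-on gene within 500 kb. Around *Col1a1* 14 genes were tested and 1, *Cacna1g*, was lower, around Rosa26 17 were tested and 1, *Camk1*, was higher, and around *Nanog* 9 were tested, with *Phc1* higher and *Clec4a2* lower.

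The promoters had less CpG than those of listed genes at large. An entry in RefSeq was matched by 96 of the 133 genes, and the first start listed was used. A CpG ratio, observed over expected, of at least 0.6 was found in 39 of these 96 (40.6%, median 0.505). It was found in 52.3% of 405 other listed genes that were near silent without dox (median 0.630), in 74.2% of 9242 listed genes and in 36.5% of all 27025 promoters of the table. The 4 sequences shown above span this range, from 0.219 in *P2ry14* to 0.913 in *She*. No test was made, and these windows do not tell where transcription began in these cells.

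For 7 of the 8 motifs the share lay between that of listed genes and that of all promoters. TAATGG, on either strand, was in 5 of the 96 promoters (5.21%), against 6.67% of the other near-silent genes, 4.61% of listed genes and 7.74% of all promoters, and the 5 were *P2ry14*, *Shroom4*, *Itgb5*, *Fkbp1b* and *Maff*. ATGCAAAT was in that of *Nradd* alone (1.04% against 1.33% of listed and 1.75% of all). ACAATG was in 10.4% (6.86% of listed, 12.8% of all), AGATAA in 10.4% (6.46% and 11.4%) and CAGATG in 12.5% (11.1% and 17.2%). AGGAAG was in 34.4% (33.0% and 35.1%) and TATAAA in 9.38% (6.57% and 14.2%). GGGCGG was in 51.0%, against 55.8% of the other near-silent genes, 65.3% of listed genes and 35.9% of all promoters. A match is a run of letters and not a bound site.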

How the data were processed

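RNA was sequenced from sorted MEPs of adult Nanog-tg mice, 3 dox-treated and 3 untreated libraries. The authors trimmed adapters with Cutadapt, quantified reads with RSEM against Ensembl transcripts of NCBIM37, and used limma for normalization. They deposited log2 values of CPM with 0.5 reads added for 12101 genes. The way library sizes were normalized, the filter and the use of strand are not given in the sources used here. The lowest value in each library gave back the whole reads (largest deviation from a whole number 6.64e-09 reads), from 11264803 to 16153600 per library on listed genes. Floors of 3 reads and exact 95% intervals cover counting error only.

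The switched-on genes, the gene lists, the roles and the usual tissues were chosen with earlier results of these data known. The switched-on genes were named with their roles, except 3 that are not reported here. Values in every library were given for *Nanog*, for the 12 genes with the highest mean CPM with dox, the 8 with the largest difference, the 8 with the highest level in their lowest dox-treated library, those on a list and the 3 on each side of a limit of the rule, the last as reads. Of each list up to 4 other genes with the smallest p were named.

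Other genes were tested with limma (version 3.58.1, R 4.3.3), by lmFit and eBayes on the log2 values deposited for the 12088 genes that reached 1 CPM in 3 or more libraries, without a block, with Benjamini–Hochberg adjustment at 0.05. The limma steps were also run on simulated reads with the same spread in every library. The simulation does not cover data in which 1 library, as dox-treated replicate 3 here, stands apart from its group. Positions were taken from the NCBIM37 annotation for 12067 listed genes. Promoters are those of RefSeq on GRCm38.p6. Shared sequence was counted as 50-base stretches of coding transcripts found in transcripts of another gene. Tables and figures used Python 3.11.15, pandas 2.3.3, numpy 2.4.6, scipy 1.17.1 and matplotlib 3.10.9. The alternatives changed the limits of the rule, the reads added, the library sizes, the variance model and the block, and omitted single libraries. Voom precision weights were an addition chosen after seeing the data.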

Additional observations from a re-analysis of the deposited data

How the results depend on the processing

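The number of switched-on genes was 133, and a difference of at least 3 in place of 2 left 61, by construction a stricter limit. It was 89 with a ceiling of log2 CPM 0, 183 with a ceiling of 2, 176 with a difference of 1.5, 136 and 107 with 0.1 and 2 reads added, 144 with plain totals of reads, and from 117 to 184 when single libraries were omitted, the highest without dox-treated replicate 3. The median gap of dox-treated replicate 3 was -1.19, and from -1.35 to -1.15 under the alternatives. Of 162 log2 differences of named genes under an alternative, 154 moved by less than the spread between replicates, 8 moved by more, all of them with other reads added and in genes with few or no untreated reads, and 0 changed sign, the lowest being 1.55 for *Robo4* without untreated replicate 2.

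Over all genes tested, limma called 555 higher and 384 lower. With a mean-variance trend it called 909 and 747, and the cause was not tested. On omitting single libraries the counts ran from 92 to 1801 and from 36 to 1687, the highest without dox-treated replicate 3. With voom precision weights they were 615 and 570. On the lists, 14 genes outside the set were higher and 20 lower. A mean-variance trend gave 26 higher and 26 lower, leaving out each library from 2 to 32 higher and from 2 to 32 lower, and voom precision weights 16 and 24.

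Both groups have replicates numbered 1 to 3. Under a replicate block, a term for that number, 53 genes over the whole table were higher and 29 lower, and 2 higher and 2 lower on the lists. Deviations from the group mean in libraries of equal number had correlations of 0.02, -0.12 and -0.30 over genes, and those of unequal number had from -0.20 to 0.24. No label ties libraries of equal number to a shared source, and they share only a number. A count fit planned with edgeR on the recovered reads was not run, and the voom precision weights were taken from those reads. Depth limits the silence described here, since a count of 0 allows 3 reads.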
